A study of Mus musculus with 2 samples.

Results

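The barcodes described here were picked from single-cell RNA libraries of mouse brain for RNA of monocytes and dendritic cells. A barcode stands for a droplet with a captured cell, and each RNA molecule is counted once through a unique molecular identifier (UMI). Barcodes with under 500 detected genes or over 10% mitochondrial UMIs were dropped, and a barcode was taken when it held UMIs of at least 4 of the 9 genes H2-Eb1, H2-Aa, H2-Ab1, Cd74, Ccr2, Plac8, S100a4, Plbd1 and Crip1, with Ccr2 or Plac8 among them. It also had to hold fewer than 4 of the 10 border-associated macrophage (BAM) genes Pf4, F13a1, Mrc1, Ms4a7, Lyve1, Cbr2, Cd163, Folr2, Cd209f and Clec10a. The rule was met by 96 of the 12036 barcodes that passed the filters on genes and mitochondrial UMIs, out of 17474 in the matrices. Of these, 63 came from 6294 kept barcodes of Mrc1Cre:Csf1rfl/fl brain and 33 from 5742 kept barcodes of Csf1rfl/fl brain. They are called Ccr2/Plac8 barcodes after the genes of which each had to show at least 1. The levels of the 19 genes of the rule chose the barcodes, so they are given only as a description.

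Mrc1Cre:Csf1rfl/fl mice (mutant) carry Cre recombinase driven by Mrc1, the mannose receptor gene, together with loxP sites in both copies of Csf1r, the receptor for colony-stimulating factor 1 and interleukin-34. Csf1rfl/fl mice (control) carry the loxP sites without Cre, so both groups share the floxed alleles. By its title the study concerns perivascular macrophages that depend on interleukin-34. The labels give whole brain as the tissue, and sort gates for endothelium (CD31), astrocytes (ACSA-2), mural cells and fibroblasts (CD13 or CD140a, O4 excluded), BAMs (CD11bhi F4/80+) and microglia (CD11b+ F4/80hi). No gate was named for monocytes or dendritic cells, many of which also carry CD11b. Mrc1 drives Cre mainly in BAMs, and any cell that has expressed Mrc1 can lose Csf1r. The labels give no age, sex or number of animals. Each genotype is 1 library, so no test between genotypes exists and no p-value is given. The 95% intervals (exact binomial for shares, exact Poisson for levels, exact conditional for ratios) hold counting error alone and leave out how animals or cells vary.

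The Ccr2/Plac8 barcodes held 1228468 UMIs in the mutant and 602024 in the control, with a median of 15997 UMIs per barcode in the mutant (lowest 2541, highest 79793) and 12268 in the control (lowest 1376, highest 83122). All kept barcodes had medians of 8941 and 8795 UMIs in the mutant and control libraries. The deepest barcode gave 6.50% of the pooled UMIs in the mutant and 13.8% in the control. The libraries shared 17 barcode sequences, and none of them was a Ccr2/Plac8 barcode. Scrublet, a doublet caller, marked 2 of the 63 mutant and 0 of the 33 control barcodes.

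Monocytes are white blood cells made in bone marrow. Classical monocytes carry CCR2, which guides them out of marrow and into tissue, while non-classical monocytes depend on the transcription factor Nr4a1 and patrol the inner wall of vessels. Dendritic cells depend on FLT3 and present peptides to T cells on MHC class II. In a healthy brain these cells are known mostly from blood, meninges and choroid plexus, whereas microglia fill the tissue itself and BAMs line its borders.

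By count of detected markers, the name monocytes and dendritic cells fitted only some of these barcodes. More markers of microglia than of any other type were held by 37 of the 63 mutant barcodes (58.7%, 45.6 to 71.0). The same was true of 24 of the 33 control barcodes (72.7%, 54.5 to 86.7). The lists differed in length and counts were not scaled for it, so a longer list could lead more easily. A marker also counted the same at any level. The lists held 10 genes for non-classical monocytes and 8 each for classical monocytes and conventional dendritic cells. The microglia list had 12 genes, among them P2ry12 and Tmem119, and at least 6 of the 12 were present in 34 mutant and 21 control barcodes. These barcodes held 903435 of the 1228468 mutant UMIs and 511851 of the 602024 control UMIs. Non-classical monocyte-like barcodes numbered 11 in the mutant (17.5%, 9.05 to 29.1) and 2 in the control (6.06%, 0.743 to 20.2). Conventional dendritic cell-like barcodes numbered 4 in each library, and 1 control barcode was type 1 dendritic cell-like. The mutant also held 3 B cell-like barcodes and 1 barcode each that was plasmacytoid dendritic cell-like, natural killer cell-like, and mast cell or basophil-like, all of which were absent from the control set. The control library did hold some outside the rule. Over all kept barcodes, at least 6 of 8 B cell markers rare in microglia were found in 5 mutant and 3 control barcodes. Of these, 4 and 0 met the rule. At least 6 of 8 natural killer cell markers were found in 2 mutant and 1 control barcodes, of which 1 and 0 met it. For plasmacytoid dendritic cells the numbers were 2 and 0. The remaining 5 mutant and 2 control barcodes stayed unassigned, and no barcode was classical monocyte-like.

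**Figure D1:**
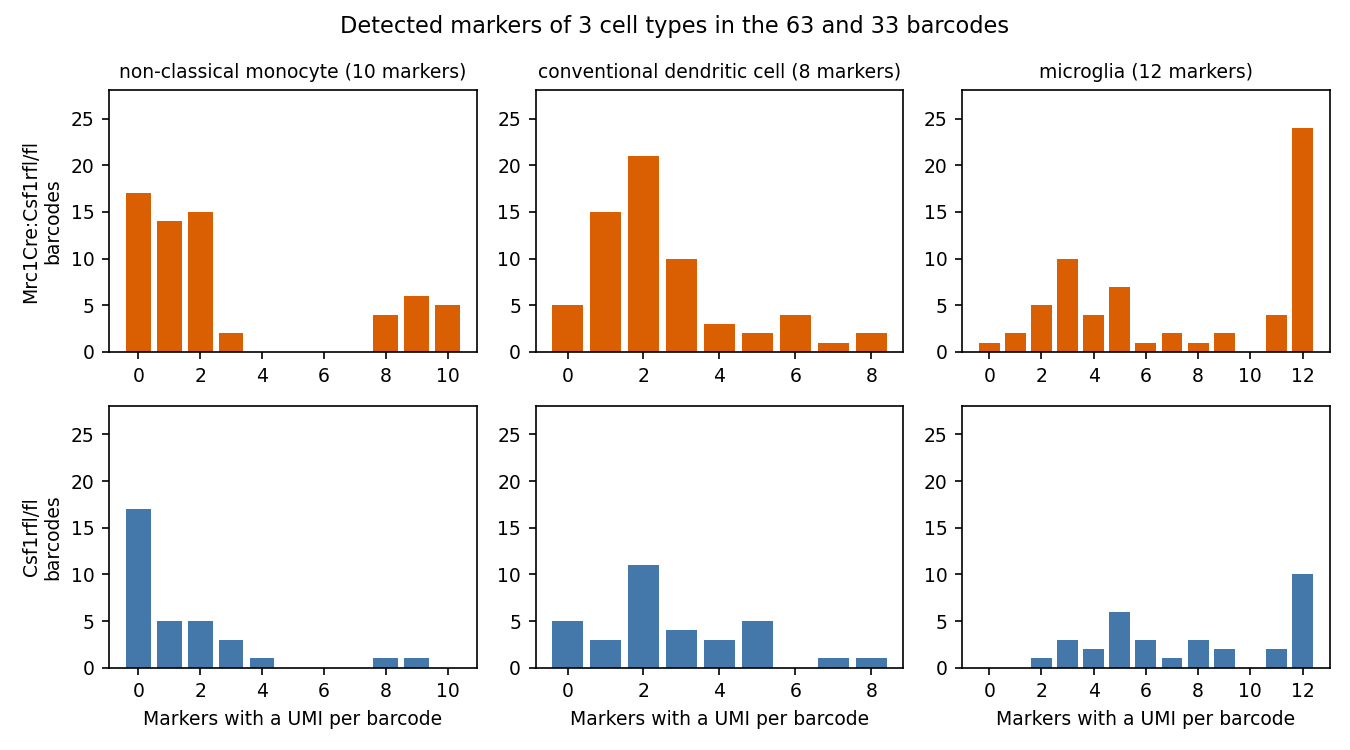
Histograms of the number of detected markers per barcode (x axis) against the number of barcodes (y axis) for 3 marker lists, with 63 mutant barcodes in the upper row and 33 control barcodes in the lower row. Non-classical monocyte markers separate a small set with 8 or more of 10 markers from barcodes with 4 or fewer, and 24 mutant and 10 control barcodes hold all 12 microglia markers.

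A second count, added after the data had been seen, used only immune lists and only markers found in at most 10% of microglial barcodes. It gave 15 mutant and 2 control non-classical monocyte-like barcodes, 7 and 4 conventional dendritic cell-like barcodes, and 7 and 1 classical monocyte-like barcodes. Under this count 25 mutant and 24 control barcodes stayed unassigned. The 15 included a barcode with 12 microglia markers and 23169 UMIs of neutrophil markers among its 75300. The classical monocyte-like barcodes of the mutant had a median of 12 microglia markers, so RNA of both types stood in most of these barcodes. The rule's own edge lay among barcodes rich in microglial RNA. Those with exactly 4 of the 9 genes numbered 11 in the mutant and 9 in the control, with medians of 11 and 12 microglia markers. Just outside it, 48 mutant and 10 control barcodes had 3 of the 9 genes, with a median of 12 microglia markers in each. Beyond these, 83 mutant and 38 control barcodes had 4 or more of the 9 genes but neither Ccr2 nor Plac8, and 6 and 17 were set aside for 4 or more BAM genes.

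MHC class II molecules show peptides at the cell surface, and their genes were high in some Ccr2/Plac8 barcodes and low in others. H2-Aa and H2-Eb1 encode chains of the classical molecules and belong to the rule. H2-DMb1 encodes a chain of the H2-M complex that loads peptides, and H2-Oa a chain of the H2-O complex that restrains it; neither was used by the rule. All of them lie in the MHC on chromosome 17. Their promoters carry a shared set of elements that CIITA, the master regulator of class II, acts through, one of which is the Y box. The 150 bases before each start are shown for 2 class II genes of the rule and 2 outside it, whose levels are given in the results. They come from RefSeq (build GRCm38.p6), each read 5′ to 3′ in the direction of the gene, and capitals mark the bases TGATTGG of the Y box.
H2-Aa: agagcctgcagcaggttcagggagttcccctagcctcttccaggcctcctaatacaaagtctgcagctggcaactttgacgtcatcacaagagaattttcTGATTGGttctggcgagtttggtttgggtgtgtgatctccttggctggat
H2-Eb1: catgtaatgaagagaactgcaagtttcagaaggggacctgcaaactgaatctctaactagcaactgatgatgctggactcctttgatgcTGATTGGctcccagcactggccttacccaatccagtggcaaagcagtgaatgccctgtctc
H2-DMb1: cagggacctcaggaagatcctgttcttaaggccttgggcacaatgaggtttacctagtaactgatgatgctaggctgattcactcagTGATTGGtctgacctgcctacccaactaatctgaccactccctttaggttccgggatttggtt
H2-Oa: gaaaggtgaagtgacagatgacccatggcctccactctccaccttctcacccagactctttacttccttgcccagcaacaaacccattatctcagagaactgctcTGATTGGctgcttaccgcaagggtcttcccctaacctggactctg

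These stretches are chr17:34287824-34287973 on the minus strand for H2-Aa, chr17:34305717-34305866 on the plus strand for H2-Eb1, chr17:34153041-34153190 on the plus strand for H2-DMb1 and chr17:34092229-34092378 on the plus strand for H2-Oa. The motif began 50 bases before the start in H2-Aa, 61 in H2-Eb1, 63 in H2-DMb1 and 45 in H2-Oa. Both strands of the 250 bases before each start were searched for CTGATTGG and for its shorter part TGATTGG, the shorter form having been chosen after the sequences were seen. Of the 14 genes of class II presentation searched, 12 were in the table. Among 32851 promoters in the RefSeq table, 3.83% held CTGATTGG and 7.23% held TGATTGG. Of the 12 searched genes in that table, 4 held CTGATTGG and 7 held TGATTGG, all of them among the 8 H2 class II genes. A match describes the sequence and is no evidence of binding.

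The summed level of H2-Eb1, H2-Aa, H2-Ab1 and Cd74 ran over several orders of magnitude between barcodes. It is given in CPM, with each barcode or pool scaled to a total of 1000000 UMIs. In the mutant it ranged between 0 and 62151 CPM with a median of 23850 CPM among the 37 barcodes over 2000 CPM, and in the control between 0 and 130814 CPM with a median of 47546 CPM among the 23 barcodes over it. Few barcodes lay near the line of 2000 CPM, which was drawn after the data had been seen: 1 mutant and 2 control barcodes were within 2-fold of it. Crossing this line with the line of 6 microglia markers gave 4 sets. With 5 to 7 microglia markers there were 10 mutant and 10 control barcodes. The 4 MHC II genes belong to the rule, which can be met with or without them, so this split is a description with no test.

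**Figure D2:**
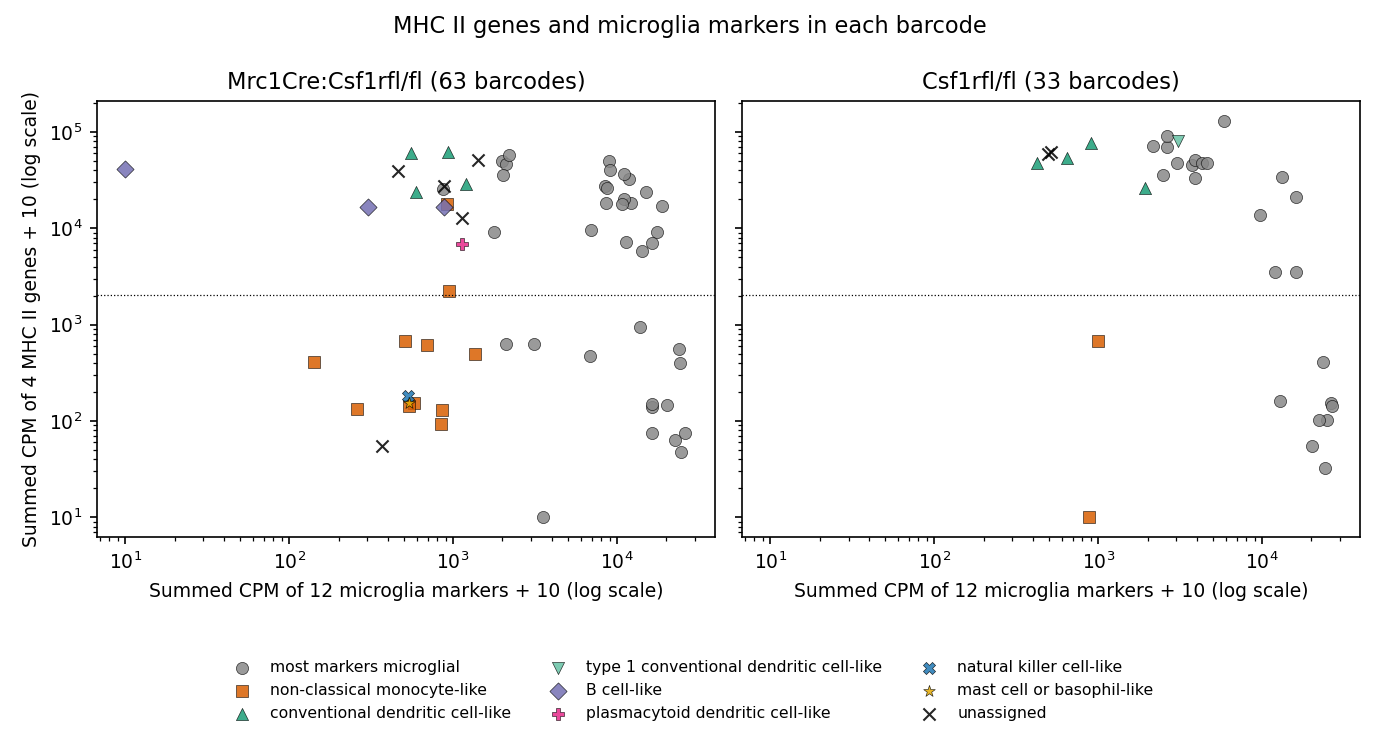
Summed CPM of H2-Eb1, H2-Aa, H2-Ab1 and Cd74 (y axis, plus 10, log scale) against summed CPM of 12 microglia markers (x axis, plus 10, log scale), with a point per barcode, the mutant on the left and the control on the right, shape and colour giving the marker class. The dotted line is at 2000 CPM; non-classical monocyte-like barcodes (squares) mostly lie under it at low microglial levels, and barcodes with mostly microglial markers (circles) lie on both sides of it.

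Barcodes high in MHC II with under 6 microglia markers were of mixed classes. By marker count, 7 of the 16 mutant barcodes were monocyte- or dendritic cell-like and 3 B cell-like. Another 3 held more markers of microglia than of any other type. Of the 11 control barcodes, 5 were monocyte- or dendritic cell-like and 4 held more markers of microglia than of any other type. That class rests on counts of under 6 detected markers. Microglia markers summed to at most 2092 CPM in this mutant set and 5814 CPM in the control set. The set held 16 barcodes in the mutant, with a median MHC II sum of 28158 CPM, and 11 in the control, with 59271 CPM. Pooled over this set, H2-DMb1 stood at 690 CPM in the mutant and 1087 CPM in the control. Cd209a, a lectin of monocyte-related and type 2 dendritic cells, was present in 3 of 16 mutant and 6 of 11 control barcodes, at 511 and 1893 CPM. Over all Ccr2/Plac8 barcodes Cd209a was present in 11 of 63 mutant and 6 of 33 control barcodes, at 193 and 269 CPM. Plac8 was present in 13 of 16 mutant and 3 of 11 control barcodes. C1qa, a complement gene of resident macrophages, was at 169 CPM in the mutant and 1718 CPM in the control. Apoe, a lipid carrier of macrophages, was at 4730 and 7713 CPM over the pools, but its median per barcode was 1301 CPM in the mutant and 203 CPM in the control. Its highest barcode had 19934 CPM in the mutant and 63227 CPM in the control. Adding the 1 MHC II-low control barcode with under 6 microglia markers moved the control median to 4823 CPM over 12 barcodes. The control median of 203 CPM thus sits at the edge of a wide gap and hangs on single barcodes.

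Barcodes low in MHC II with under 6 microglia markers were 13 in the mutant and 1 in the control. Of these, 9 and 1 were non-classical monocyte-like. H2-DMb1 had 0 UMIs in all 14. Itgal, the integrin chain of LFA-1 that non-classical monocytes use on endothelium, stood at 510 CPM over the 13 mutant barcodes and had 0 UMIs in the control barcode. Klf4, a factor of the monocyte lineage, stood at 418 CPM in the mutant barcodes and had 0 UMIs in the control barcode. The control barcode held only 4601 UMIs, too few for 0 UMIs of either gene to set it apart. The 13 mutant barcodes also included 1 natural killer cell-like and 1 mast cell or basophil-like barcode. These pooled levels of Itgal and Klf4 are not split by class.

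Barcodes high in MHC II with at least 6 microglia markers were 21 in the mutant and 12 in the control. Their microglia markers summed to a median of 10649 CPM in the mutant and 4078 CPM in the control, and their MHC II genes to 19923 and 34730 CPM. Ccr2, a gene of the rule, had a median of 19 UMIs per barcode in the mutant and 15 in the control. S100a6, a calcium-binding protein of blood-derived cells that was no part of the rule, was at 768 CPM in the mutant and 570 CPM in the control, against 11.1 and 14.6 CPM in microglial barcodes. S100a6 thus stood beside microglia markers in these barcodes. Their median depth was 22777 UMIs in the mutant and 11606 in the control, against 8420 and 8516 in microglial barcodes, and the part of doublets and free RNA in this was not tested beyond the Scrublet calls.

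Barcodes low in MHC II with at least 6 microglia markers were 13 in the mutant and 9 in the control and had the weakest hold on the name. Exactly 4 of the 9 genes were present in 7 mutant and 7 control barcodes of this set. Ccr2 was present as 1 UMI in 6 mutant and 5 control barcodes and as 2 UMIs in 4 and 1. The microglia markers summed to medians of 16382 CPM in the mutant and 23593 CPM in the control, at median depths of 23211 and 42089 UMIs. S100a6 was at 33.9 CPM in the mutant and 37.3 CPM in the control.

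Non-classical monocyte-like barcodes showed at least 8 of the 10 listed markers in every case, as their class was made by these markers, with no Cd209a, Flt3 or Kmo UMI in any of the 13. Adgre4, an adhesion receptor of the F4/80 family, had 362, 2134, 1278, 2515, 2361, 2699, 1828, 1023, 562, 751 and 1319 CPM in the 11 mutant barcodes and 652 and 1120 CPM in the 2 control barcodes. All 13 barcodes held Adgre4, and the control values fell inside the mutant range. Ear2, a ribonuclease of the eosinophil-associated family, ran between 187 and 1721 CPM in the mutant barcodes (median 748) and had 435 and 329 CPM in the control barcodes. Treml4, a receptor that marks this monocyte subset in mice, ran between 157 and 918 CPM in the mutant (median 426) and had 217 and 329 CPM in the control. Ace, the angiotensin-converting enzyme, ran between 0 and 1420 CPM in the mutant (median 368), with 2 barcodes at 0, and had 217 and 329 CPM in the control. None of these markers separated the 2 control barcodes from the 11 mutant ones.

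Nr4a1, the factor that non-classical monocytes depend on, was present in all 13 barcodes, between 83.5 and 852 CPM in the mutant (median 659) and at 435 and 988 CPM in the control. Csf1r, which supports survival of this subset, was present in all 13 as well, between 124 and 937 CPM in the mutant (median 659) and at 1304 and 725 CPM in the control. Plac8 ran between 132 and 10014 CPM in the mutant (median 1704) and had 217 and 1252 CPM in the control. Ccr2, a gene of the rule, had few UMIs in most of these barcodes. Of the 11 mutant barcodes 2 had 0 UMIs, as had 1 of the 2 control barcodes, 8 mutant barcodes had between 1 and 5 UMIs, and 1 mutant barcode had 55 UMIs. In 1 of the 8, a barcode of 8150 UMIs, Ccr2 came to 613 CPM, against 585 CPM over all mutant Ccr2/Plac8 barcodes. The barcode with 55 UMIs of Ccr2 also held 212 UMIs of Cd74 and an MHC II sum of 17737 CPM, and so differed from the other 10, whose sums ran up to 2249 CPM.

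Microglial RNA was low in these barcodes, with sums of 12 markers between 132 and 1350 CPM in the mutant and 869 and 988 CPM in the control. Over all kept barcodes, at least 6 of the 10 markers were found in 20 mutant and 5 control barcodes, of which 15 and 2 met the rule. Of the 5 mutant and 3 control barcodes outside it, 3 and 2 had under 4 of the 9 genes, 2 and 1 lacked Ccr2 and Plac8, and 1 and 1 had 4 or more BAM genes. In the control, more barcodes with this signature lay outside the rule (3) than inside it (2). Inside the rule, 2 MHC II-high and 2 MHC II-low mutant barcodes and 1 control barcode had at least 6 microglia markers. The barcode with 23169 UMIs of neutrophil markers was among these.

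**Figure D3:**
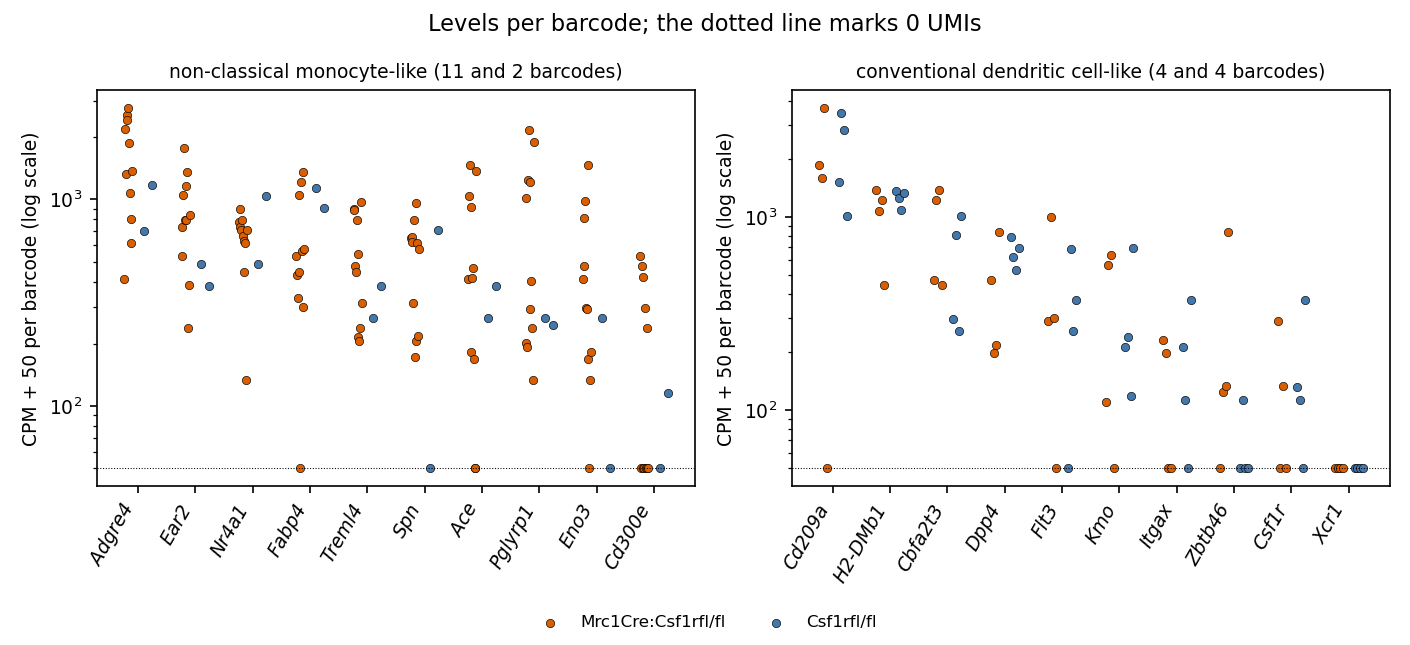
CPM plus 50 per barcode (y axis, log scale) of 10 genes in non-classical monocyte-like barcodes (left, 11 mutant and 2 control) and of 10 genes in conventional dendritic cell-like barcodes (right, 4 mutant and 4 control), mutant points left of control points, the dotted line marking 0 UMIs. Control points fall within or near the spread of the mutant points for most genes, Cd300e is at 0 in 6 of 11 mutant barcodes, and Xcr1 is at 0 in all 8 dendritic cell-like barcodes.

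Conventional dendritic cell-like barcodes held high MHC II and mostly Cd209a. Flt3 is among the 8 markers that made the class, so its presence is built in. In 3 of the 4 mutant and 2 of the 4 control barcodes this class led the next by 1 marker. Cbfa2t3 and Batf3, also of the 8, were present in 36.4% and 18.4% of mutant and 36.2% and 20.2% of control microglial barcodes. Cd209a had 1802, 1541, 3587 and 0 CPM in the 4 mutant barcodes and 1467, 3410, 2748 and 962 CPM in the 4 control barcodes. The mutant barcode without Cd209a was also the shallowest, with 2541 UMIs. Flt3, the growth factor receptor of the dendritic lineage, had 240, 954, 250 and 0 CPM in the mutant and 0, 631, 206 and 321 CPM in the control. H2-DMb1 was present in all 8, at 1321, 1027, 1168 and 394 CPM in the mutant and 1304, 1200, 1031 and 1283 CPM in the control. The values of the 4 mutant and 4 control barcodes overlapped for all 3 genes, which is no comparison of genotypes. Xcr1, the chemokine receptor of type 1 cells, had 0 UMIs in all 8, while Clec9a, a receptor for dead cells on type 1 cells, had 2 UMIs over the mutant and 6 over the control barcodes. Csf1r was low, with 5 UMIs over the 4 mutant barcodes (112 CPM, 36.2 to 260) and 3 UMIs over the 4 control barcodes (65.5 CPM, 13.5 to 192). The type 1 dendritic cell-like barcode of the control also lacked Xcr1 and held 4 UMIs of the adhesion gene Cadm1 and 1 UMI each of Clec9a, Wdfy4, Tlr3, Itgae and Irf8, so its name rests on few molecules.

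The other immune-like barcodes of the mutant were clear but few. The 3 B cell-like barcodes held Cd79a, a chain of the B cell receptor complex, at 2063, 2208 and 5521 CPM and the kappa light chain gene Igkc at 8877, 2061 and 11576 CPM, with no Ccr2. They met the rule through Plac8, with 9, 8 and 4 UMIs. The plasmacytoid dendritic cell-like barcode held 48 UMIs of Tcf4, the lineage's master factor, and 8 of Ccr9. The natural killer cell-like barcode held 44 UMIs of the granzyme gene Gzma and 4 of Ncr1. The mast cell or basophil-like barcode held 756 UMIs of Prss34 and 588 of Mcpt8, proteases of mouse basophils, with 65 of Cpa3, a protease gene of mast cells and basophils, and none of the mast cell genes Mcpt4 and Tpsb2. A barcode with 12 microglia markers and 8 non-classical monocyte markers held 23169 UMIs of neutrophil markers, 30.8% of its 75300 UMIs. It held 9028 of the 9060 mutant S100a8 UMIs, and Scrublet did not mark it.

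The genes of the rule behaved as their use implies. Ccr2, the receptor of the chemokine CCL2, was at 585 CPM in the mutant Ccr2/Plac8 barcodes and 470 CPM in the control ones, present in 56 of 63 and 31 of 33. Plac8 was at 584 CPM in the mutant and 367 CPM in the control, present in 35 of 63 and 9 of 33. S100a4 was at 395 and 221 CPM in the mutant and control, Crip1 at 858 and 346 CPM, and H2-Aa at 3092 and 4081 CPM. Choroid plexus epithelial barcodes, which should lack Ccr2 and Plac8, had 0 UMIs of either. At a thinned depth of 2000 UMIs, Ccr2 was present in 34 of 63 mutant and 18 of 30 control Ccr2/Plac8 barcodes, against 0 of 278 mutant choroid plexus barcodes (a limit of 3 counts allows up to 1.08%, and the exact binomial upper bound is 1.32%) and 0 of 133 control ones (2.26% and 2.74%). Plac8 was present at that depth in 24 of 63 mutant and 7 of 30 control barcodes. Median depths before thinning were 12475 UMIs in mutant and 14414 in control choroid plexus barcodes.

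Genes outside the rule that stood above both BAM and microglial barcodes, were ranked by the smaller of the folds in the 2 libraries and the leading 20 taken. This describes barcodes chosen by correlated genes, with no test. S100a6 led, with 643 CPM in the mutant and 347 CPM in the control, at least 14.6-fold over BAM and microglial barcodes in each library. Lsp1, an actin-binding protein of leukocytes, was at 500 and 304 CPM in the mutant and control, at least 7.62-fold higher. S100a11 (250 and 146 CPM), the galectin gene Lgals3 (353 and 274 CPM) and the adhesion receptor gene Adgre5 (153 and 106 CPM) followed at 7.32-, 7.08- and 6.98-fold. The intermediate filament gene Vim (513 and 184 CPM), Tmsb10, S100a10, Fxyd5 and Alcam, which encodes a binding partner of CD6 on T cells, were also among the 20. Of the 20 genes, 18 were at least 2-fold higher in both libraries. Ccl5, also listed, had 71.2% of its mutant and 56.4% of its control UMIs in 1 barcode each. H2-DMb1, the only class II gene among them, was at 328 CPM in the mutant and 397 CPM in the control, at least 2.41-fold over the other groups.

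Ccr2/Plac8 barcodes took a larger share of the mutant library. They made up 1.001% of kept barcodes (0.770 to 1.28) in the mutant and 0.575% (0.396 to 0.806) in the control; the mutant over control ratio was 1.74 (1.13 to 2.74). After thinning each barcode to 2000 UMIs, 38 of 5910 mutant barcodes met the rule (0.643%, 0.455 to 0.881). In the control 28 of 5387 did (0.520%, 0.346 to 0.750), and these intervals overlap. Only 35 of these mutant and 19 of these control barcodes had also met the rule before thinning. Thinning cannot add detected genes, so the others entered by falling under the limit on BAM genes. The thinned shares therefore do not compare the same barcodes at equal depth. Leaving out barcodes with at least 6 microglia markers gave 0.461% in the mutant and 0.209% in the control. Non-classical monocyte-like barcodes made up 0.175% (0.0873 to 0.312) of kept mutant and 0.0348% (0.00422 to 0.126) of kept control barcodes. How sorted fractions were mixed before loading is not given, and its part in these shares cannot be told apart from genotype. The filters set aside few such barcodes: 3 of 2441 mutant (0.123%) and 2 of 2997 control (0.0667%) barcodes outside them met the marker part of the rule.

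Csf1r, the targeted gene (chromosome 18, 61100598 to 61132149, plus strand, GRCm38), was at 1005 CPM in mutant and 1630 CPM in control Ccr2/Plac8 barcodes (ratio 0.616, 0.566 to 0.671). It was present in 54 of 63 mutant and 31 of 33 control barcodes. Among barcodes with under 6 microglia markers Csf1r was at 332 CPM in the mutant and 322 CPM in the control (ratio 1.03, 0.680 to 1.62). The control barcode with most Csf1r held 26.8% of the control UMIs, and without the leading barcode of each library the ratio was 0.676 (0.615 to 0.744). A 3′ tag can lie outside the deleted part, and the labels do not name that part. The deletion is therefore left unchecked by these values. Mrc1, which drives Cre, was at 78.1 CPM in the mutant and 96.3 CPM in the control, present in 18 of 63 and 17 of 33 barcodes, and the rule limits it.

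Between genotypes, 5741 genes had at least 50 UMIs over both libraries and were counted as measured. A ratio of at least 2 was reached by 211 genes (3.68%) and a ratio of at most 0.5 by 84 genes (1.46%), with a median log2 ratio of -0.05 over all measured genes (log2 of CPM plus 1, mutant over control). In 50 of the 211 higher and 10 of the 84 lower genes, 1 barcode gave over 50% of the UMIs of the higher library. Among barcodes with under 6 microglia markers, 29 mutant and 12 control, 191 of 1383 measured genes (13.8%) reached a ratio of at least 2 and 74 (5.35%) a ratio of at most 0.5, with a median of 0.18. Only 55 of the higher and 8 of the lower genes were shared with the count over all Ccr2/Plac8 barcodes.

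The highest genes mostly told of single barcodes. S100a9 and S100a8, the chains of the neutrophil protein calprotectin, were at 6928 and 7375 CPM in the mutant, with S100a9 at 0 and S100a8 at 3.32 CPM in the control, and 1 mutant barcode held 99.7% and 99.6% of their mutant UMIs. The neutrophil granule genes Camp, Ngp, Lcn2 and Ltf came almost wholly from that same barcode, which held 571 of 573 Lcn2 and 298 of 298 Ltf UMIs, and had 0 control UMIs. Against a floor of 3 control counts S100a9 was at least 1390-fold and Camp at least 567-fold higher. Prss34 and Mcpt8 had all their UMIs in the mast cell or basophil-like barcode, at least 123-fold and 96.1-fold higher. Chil3, a chitinase-like gene of classical monocytes and neutrophils, was at 570 CPM in the mutant and 6.64 CPM in the control, with 96.4% of its mutant UMIs in 1 barcode. Ly6d, a gene of B lineage cells, was present in 6 mutant and 0 control barcodes and was at least 36.1-fold higher. H1f5, a linker histone gene of dividing cells, was present in 8 mutant and 0 control barcodes, with 78.7% of its UMIs in 1. Without the neutrophil-rich barcode, 175 genes reached a ratio of at least 2, of which 165 were among the 211.

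The lowest genes had several sources. Prl, the pituitary hormone prolactin, had 0 UMIs in all 63 mutant barcodes and 73 UMIs over 29 of 33 control barcodes, at least 49.7-fold lower. It was present in 62.7% of control choroid plexus and 62.1% of control microglial barcodes, with a median of 1 UMI per barcode in each as in the Ccr2/Plac8 set, and in 0 of 6294 kept mutant barcodes. The same difference in Prl thus ran through other barcodes of both libraries. Igfbp5 and Col1a2, genes of fibroblasts and mural cells, had 96.5% and 95.6% of their control UMIs in 1 barcode. Sdk1, an adhesion gene, was at 42.3 CPM in the mutant and 166 CPM in the control. Ms4a7, a macrophage gene that the rule limits, was at 87.9 CPM in the mutant and 266 CPM in the control, with a mutant over control ratio of 0.331 (0.257 to 0.425), in 13 of 63 and 11 of 33 barcodes.

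Type I interferon response genes were the list with most genes lower in the mutant. Of 16 measured genes, 9 had a ratio of at most 0.5 and 0 a ratio of at least 2, with a median log2 ratio of -1.22 against -0.05 for all genes. Isg15, a ubiquitin-like protein, was at 60.2 CPM in the mutant and 214 CPM in the control (ratio 0.281, 0.208 to 0.377). Ifit3, an RNA-binding antiviral protein, was at 21.2 and 176 CPM, and Rsad2, the antiviral enzyme viperin, at 14.7 and 193 CPM. Ifi27l2a, the most abundant of the list, was at 1129 CPM in the mutant and 980 CPM in the control. A conventional dendritic cell-like control barcode of 14554 UMIs held 23.5% of the control UMIs of the list, with 72 of Rsad2, 61 of Isg15 and 40 of Ifit3, and it also held 167 of the 169 control UMIs of the interferon-induced chemokine Cxcl10. The 20 listed genes summed to 2000 CPM in the mutant and 2968 CPM in the control, and to 1801 and 2327 CPM without the leading barcode of each library. UMIs of the 9 lower genes were present in 47 of 63 mutant and 26 of 33 control barcodes, with medians of 79.3 and 171 CPM per barcode. These 9 were chosen for being lower, and over the whole list the medians per barcode were 1230 CPM in the mutant and 1640 CPM in the control.

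Of 13 measured genes that mark the passage of monocytes to macrophages, 2 had a ratio of at most 0.5 and 0 a ratio of at least 2, with a median of -0.50. The rule limits Ms4a7 and Mrc1 of this list, and without them 1 of 11 genes was lower past the fold, with the same median. Apoe, a lipid carrier of macrophages, was at 4007 CPM in the mutant and 8882 CPM in the control (ratio 0.451, 0.434 to 0.469), and Ms4a7 was the other. C1qa and C1qb were at 3414 and 3317 CPM in the mutant and 5804 and 5183 CPM in the control. The 12 microglia markers had a median of -0.66 with 0 genes past the fold in either direction, and a median of 0.0902 among barcodes with at least 5 of the 9 genes. Their sum was 9812 CPM in the mutant (0 to 26002 per barcode) and 15501 CPM in the control (412 to 26563 per barcode). The part of microglial RNA in the C1q and Apoe values was not tested. Among barcodes with under 6 microglia markers C1qa was at 135 CPM in the mutant and 1630 CPM in the control. Apoe was at 3941 and 8606 CPM over these pools, with medians per barcode of 1838 CPM in the mutant and 4823 CPM in the control. A single control barcode held 37.2% of those control Apoe UMIs. Among the MHC II-high barcodes of this set the medians ran the other way, but in the control the 2 sets differ by only 1 barcode. The direction of the medians is therefore unstable.

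The list of S100, annexin, galectin and cytoskeletal genes, which holds S100a4 and Crip1 of the rule, had 7 of 16 measured genes at a ratio of at least 2 and 0 at most 0.5, with a median of 0.90. S100a8, S100a9 and Crip1 were among the 7. Without S100a4 and Crip1, 6 of 14 measured genes reached a ratio of at least 2, with a median of 0.90. Among barcodes with at least 5 of the 9 genes the list's median was 0.25. Without the leading barcode of each library the list summed to 5675 CPM in the mutant and 2782 CPM in the control. Vim was at 513 and 184 CPM, a ratio of 2.78 (2.27 to 3.43), Anxa2 at 174 and 69.8 CPM, and Ahnak at 318 and 133 CPM. Among barcodes with under 6 microglia markers 3 of 14 measured genes reached a ratio of at least 2, with a median of 0.43. The non-classical monocyte markers had 9 of 9 measured genes at a ratio of at least 2, with a median of 1.95, beside 11 mutant and 2 control barcodes of that class. The neutrophil-rich barcode, which is not among the 11, held 19.4% of the mutant UMIs of these markers. In the control 1 barcode held 50.7%. The markers summed to 1067 CPM in the mutant and 243 CPM in the control, and to 917 and 123 CPM without the leading barcode of each library.

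Lineage transcription factors split. Of 15 measured genes, 3 had a ratio of at least 2 and 1 a ratio of at most 0.5, with a median of 0.15. Klf2, a factor of circulating cells, was at 151 CPM in the mutant and 38.2 CPM in the control (ratio 3.96, 2.56 to 6.41), in 39 of 63 and 13 of 33 barcodes. Nr4a1 was at 86.3 and 41.5 CPM, and Bcl11a, a factor of B cells and plasmacytoid dendritic cells, at 69.2 and 24.9 CPM. Batf3, a factor of type 1 dendritic cells, was at 26.9 CPM in the mutant and 68.1 CPM in the control (ratio 0.394, 0.242 to 0.639). Batf3 was also present in 18.4% of mutant and 20.2% of control microglial barcodes, and the part of microglial RNA in its values was not tested. Klf2 and Nr4a1 were also the 2 genes past a ratio of 2 among 16 measured immediate early genes, whose median was -0.07. Jun and Junb, of the same list, were at 204 and 151 CPM in the mutant and 299 and 234 CPM in the control.

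Antigen presentation genes outside the rule were close between genotypes over all Ccr2/Plac8 barcodes. Of 9 measured class II accessory genes 1 was lower past the fold, H2-Oa, at 34.2 CPM in the mutant and 88.0 CPM in the control (ratio 0.388, 0.253 to 0.593). H2-DMa was at 405 and 445 CPM, Ciita at 81.4 and 51.5 CPM, and the median was -0.15. Among barcodes with under 6 microglia markers this list had a median of -0.88, with H2-DMa at 455 CPM in the mutant and 954 CPM in the control and H2-DMb1 at 391 and 1031 CPM. That set held 16 MHC II-high of 29 barcodes in the mutant and 11 of 12 in the control. Class I presentation had 0 of 12 measured genes past the fold and a median of -0.03, with B2m at 2012 CPM in the mutant and 2090 CPM in the control. Costimulation genes had 0 of 6 past the fold, with Cd86 at 223 and 277 CPM and Cd83 at 116 and 186 CPM.

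Chemokine receptors, chemokines and adhesion genes were mixed. Of 4 measured chemokine receptors, with Ccr2 of the rule among them, Ccr1 was past the fold, with 43 UMIs in the mutant and 9 UMIs in the control. Of 8 measured chemokines 4 were lower past the fold, namely Cxcl10, Ccl12, Ccl5 and Ccl4, and each had over 50% of its control UMIs in 1 barcode. Ccl5 was at 107 CPM in the mutant and 247 CPM in the control over all barcodes, but at 289 and 11.1 CPM among barcodes with under 6 microglia markers, where all 94 mutant UMIs came from 1 barcode. Of 11 measured adhesion genes Spn, which encodes CD43 and is also a non-classical monocyte marker, was past the fold, at 65.1 CPM in the mutant and 23.3 CPM in the control. Itgal was at 96.9 and 53.1 CPM, and Selplg, the selectin ligand, at 905 and 1512 CPM. The 5 measured receptors for colony-stimulating factors and FLT3 ligand had no gene past the fold.

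The other lists moved little. Pattern recognition receptors had 1 of 13 genes past the fold, Tlr3, at 29.3 CPM in the mutant and 59.8 CPM in the control. Cholesterol genes had 1 of 5, Srebf2, at 65.1 and 26.6 CPM. Inflammatory cytokines (5 genes), Fc receptors (6) and glycolysis genes (11) had none, with medians of 0.09, -0.25 and 0.13. In all, 6 of the 17 pathway lists had no gene past the fold in either direction. As only 3.68% and 1.46% of all measured genes were past it, a short list can have none without standing out.

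**Figure D4:**
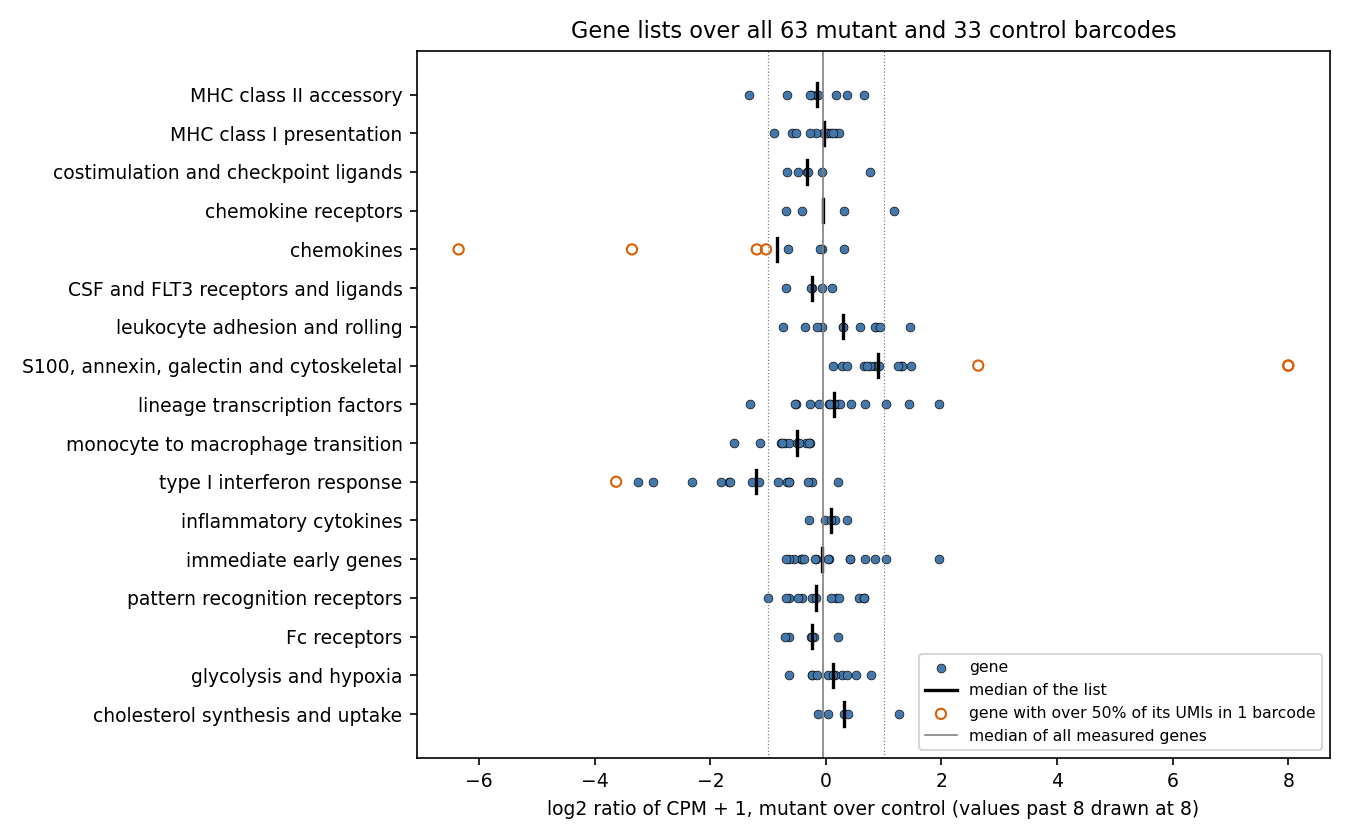
Log2 ratio of CPM plus 1, mutant over control (x axis), for each measured gene of 17 pathway lists (rows) over all 63 mutant and 33 control barcodes, with black bars at list medians, dotted lines at 2-fold, a grey line at the median of all measured genes, ratios past 8 drawn at 8, and open circles for genes with over 50% of their UMIs in 1 barcode. The interferon list lies furthest to the left by its median of -1.22 and the S100, annexin, galectin and cytoskeletal list furthest to the right at 0.90; the 4 chemokines past the fold are open circles.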

How the data were processed

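Single-cell RNA was measured in 1 library for each genotype. The deposited matrices hold UMI counts per gene and barcode, made by the authors with Cell Ranger 7.1.0 per the file headers, and GRCm38 per the submitters' processing notes. The libraries held 82806348 UMIs in the mutant and 85716531 UMIs in the control. Barcodes and gene lists were chosen with earlier results of these data known. A barcode took the class of the list with most detected markers, at least 3, with no scaling for list length. UMIs were summed per library, and a gene counted as past the fold at a ratio of at least 2 or at most 0.5 with at least 50 UMIs over both libraries. Genes named between genotypes were the 12 highest and 12 lowest by the interval bound nearer to a ratio of 1, at 50 CPM or more in 1 library (mitochondrial, ribosomal, predicted, haemoglobin, immunoglobulin and sex-linked genes left out), with 2 to 4 genes farthest from 1 and 2 to 4 highest per list, Csf1r, Mrc1 and class markers. Genes named against BAM and microglial barcodes were the 20 with the highest fold in their lower library, at 100 CPM or more. Scrublet (scanpy 1.11.5) ran on all barcodes of a library, and its calls were kept in. Scripts used Python 3.11.15 and edgeR 4.0.16 (TMM scaling as an alternative only) and were tested on simulated data. Alternatives covered the rule, filters, scaling and single barcodes.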

Additional observations from a re-analysis of the deposited data

How the results depend on the processing

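No paired analysis was possible because each genotype is 1 library, and for the same reason no replicate could be left out. The share of Ccr2/Plac8 barcodes became 0.461% in the mutant and 0.209% in the control without barcodes of 6 or more microglia markers, 1.76% in the mutant with 3 of the 9 genes, and 0.643% in the mutant after thinning. Without the microglia-rich barcodes, those with more markers of microglia than of any other type made up 13.8% in the mutant and 33.3% in the control. Non-classical monocyte-like barcodes then made up 37.9% in the mutant. Conventional dendritic cell-like barcodes, here with the type 1 dendritic cell-like barcode counted in, made up 41.7% in the control. After thinning, barcodes with more markers of microglia than of any other type made up 39.5% in the mutant. Non-classical monocyte-like barcodes then made up 7.89% in the mutant and 0% in the control. Genes past the fold numbered 372 higher and 202 lower with the mean of per-barcode CPM, 562 and 300 at 20 or more UMIs, and 3510 and 1942 with no minimum. With 5 of the 9 genes, the median log2 ratio was 0.25 for the S100 list and 0.0902 for microglia markers, which turned its direction. Only 65 of the 211 higher and 30 of the 84 lower genes were shared with that stricter rule. Without the microglia-rich barcodes, medians were -0.88 for class II accessory genes, -1.70 for costimulation (1 gene), -0.87 for colony-stimulating factor and FLT3 genes, 1.17 for adhesion, 0.43 for the S100 list, 0.75 for transcription factors, -1.57 for the monocyte to macrophage list, 2.95 for non-classical monocyte markers and -0.45 for microglia markers. With per-barcode means, microglia markers had -0.34. Without the barcode with most UMIs of the gene in each library, Ccl4 (0.33), Col1a2 (1.06) and Igfbp5 (1.03) turned direction. The cause of these shifts was not tested, apart from fewer barcodes or genes entering by construction. Removing Scrublet calls left 197 higher and 79 lower genes, and TMM scaling gave 230 and 67. Classes of classical monocytes alone and of dendritic cells alone were not run, as they held too few barcodes. The added alternatives were chosen after seeing the data. Depth limits all statements on genes under 50 UMIs.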

Other observations

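Ccr2 was also present in barcodes classed as microglia, in 12.5% of 4050 mutant and 4.27% of 3792 control barcodes, at median depths of 8420 and 8516 UMIs. After thinning to 2000 UMIs these shares were 3.90% (3.30 to 4.56) in the mutant and 1.20% (0.871 to 1.61) in the control. Choroid plexus barcodes had 0 of 279 in the mutant and 0 of 134 in the control, at median depths of 12475 and 14414 UMIs. Plac8 was present in 1.43% of mutant and 1.71% of control microglial barcodes. No replicate library bears on these values.

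Classical monocyte markers had 4 of 6 measured genes at a ratio of at least 2 in the Ccr2/Plac8 barcodes, although none was classical monocyte-like by the full marker count. Ly6c2, a surface protein of that subset, was at 187 CPM in the mutant and 84.7 CPM in the control, in 15 and 3 barcodes. Without the microglia-rich barcodes the list turned direction: 1 of 3 measured genes was higher and 1 lower past the fold, with a median log2 ratio of -0.51, against 1.86 over all Ccr2/Plac8 barcodes. The neutrophil-rich mutant barcode held 57.8% of the mutant UMIs of the list. The list summed to 1223 CPM in the mutant and 382 CPM in the control, and to 549.8 and 299.6 CPM without the leading barcode of each library.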
